A study of Mus musculus with 2 samples.

Results

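The mature microRNAs (miRNAs) miR-23a-3p, miR-23b-3p, miR-27a-3p, miR-27b-3p and miR-24-3p were described in smooth muscle cells of mouse pulmonary arteries, grown in culture, with and without NOX1. They were picked out of the table by their miRBase mature accessions, by a rule that uses no intensity, although earlier results of these data were known when the miRNAs were proposed. All 5 accessions were found among the 739 features of the array table, each as a feature of its own, and all 5 had an intensity on both arrays. The names were given with the accessions that chose these miRNAs, and the table itself holds accessions only. The miRNA array compared 2 samples, wild-type and NOX1-deficient, with 1 array each. NOX1 is the catalytic part of an NADPH oxidase, an enzyme that makes superoxide. Both came from male C57BL/6 mice, 3 per genotype. Cells of both genotypes were used at passage 3, seeded at 150000 per well in 12-well plates and cultured for 24 hours in 10% FBS (fetal bovine serum) in DMEM/F-12. The sources used here state neither how NOX1 was inactivated nor whether the 3 mice of a genotype were pooled. With 1 array per genotype there is no replicate error, so every difference below is the difference between these arrays, with no test and no p-value.

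A miRNA guides the silencing complex to messenger RNAs that pair with its seed, bases 2 to 8 from its 5′ end, and lowers their translation and stability. The miR-23, miR-27 and miR-24 families are made from paired clusters, in each of which a miR-23, a miR-27 and a miR-24 hairpin lie side by side and can be cut from a shared primary transcript. In vascular cells they are known for roles in the smooth muscle phenotype and in angiogenesis. Human pulmonary artery smooth muscle cells given platelet-derived growth factor make more miR-24, which lowers Trb3 and with it signalling by bone morphogenetic proteins. In rat vascular smooth muscle, miR-23b is known to target Foxo4. The miR-27 pair is known for targeting Pparg, studied most in fat cells.

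The mature sequences below show what each feature is meant to detect, with the seed in capitals. RefSeq gave sequences (build GRCm38.p6) for 4 of the 5 miRNAs, and miR-23b-3p is named only.
miR-23a-3p: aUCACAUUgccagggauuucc
miR-27a-3p: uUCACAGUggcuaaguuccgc
miR-27b-3p: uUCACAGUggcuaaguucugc
miR-24-3p: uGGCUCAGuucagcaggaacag
The miR-27 paralogs share their seed, UCACAGU, and 20 of 21 bases in all. They differ by C19U, written as the base of miR-27a-3p, the position counted from 1 at the 5′ end, and the base of miR-27b-3p. Whether probes separate a difference of 1 base was not tested. The seeds of miR-23a-3p and miR-27a-3p match at 6 of 7 bases and differ by U7G (miR-23a-3p first), whereas the seed of miR-24-3p matches that of miR-23a-3p or miR-27a-3p at 0 of 7 positions. In the seed, then, miR-23a-3p is close to the miR-27 pair and miR-24-3p is unlike both.

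Few other mouse miRNAs hold the seeds of the miR-27 pair and of miR-24-3p. Of 1679 mature miRNA names in the RefSeq table, 2 carry the seed UCACAGU at bases 2 to 8, which are the miR-27 paralogs themselves. A further one, miR-128-3p, holds the same letters from its first base, 1 position earlier, and is shown with them in capitals.
miR-128-3p: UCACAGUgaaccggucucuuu
The seed GGCUCAG is held by 5 names, miR-24-3p together with miR-5124b, miR-6369, miR-6410 and miR-6413. Which array features detect miR-128-3p or these other miRNAs was not determined, since the table has no names, so their intensities are not given.

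The clusters lie on different chromosomes. Mir23a, Mir27a and Mir24-2 span 404 bases at chr8:84208518-84208921 on the plus strand of GRCm38.p6, with 79 bases between the first and second hairpins and 56 between the next pair. Apart from miRNA genes, which were left out of the search for overlaps, no annotated gene in the RefSeq table overlaps them. Mir181c and Zswim4 are the nearest genes on either side. Mir23b, Mir27b and Mir24-1 span 792 bases at chr13:63300484-63301275, also on the plus strand, with gaps of 154 and 423 bases, inside the annotated span of the protein-coding gene Aopep. Exons and introns of Aopep were not used here. The hairpins below are shown with the mature miRNA in capitals because 2 of them, one in each cluster, give the same miR-24-3p.
Mir23a: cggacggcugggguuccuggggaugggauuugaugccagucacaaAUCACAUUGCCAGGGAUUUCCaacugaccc
Mir27a: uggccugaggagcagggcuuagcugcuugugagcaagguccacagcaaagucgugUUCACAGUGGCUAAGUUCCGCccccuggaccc
Mir24-2: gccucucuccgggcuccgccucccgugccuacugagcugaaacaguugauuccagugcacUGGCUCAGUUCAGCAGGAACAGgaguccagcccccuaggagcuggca
Mir27b: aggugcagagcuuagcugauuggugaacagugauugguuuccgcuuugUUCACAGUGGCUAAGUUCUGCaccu
Mir24-1: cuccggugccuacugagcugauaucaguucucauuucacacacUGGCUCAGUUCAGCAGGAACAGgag
In each hairpin the mature miRNA is on the 3′ arm, as at bases 46 to 66 of the 75 bases of Mir23a. Because the mature sequence is identical from Mir24-2 and Mir24-1, the miR-24-3p feature reads the products of both clusters together and cannot be assigned to either. The miR-23 and miR-27 features are each named for the product of a single cluster, and how far their probes also read the paralog was not tested.

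All 5 miRNAs were among the brighter features on both arrays. The table listed an intensity for 546 features in wild-type and 525 in NOX1-deficient cells and null for the rest, with a median listed intensity of 3.31 and 3.42 arbitrary units. Even the dimmest of the 5, miR-27b-3p, read 36.7 times the array median in wild-type and 31.4 times in NOX1-deficient cells. Together they held 2.57% of the summed intensity of the wild-type array and 2.90% of that of the NOX1-deficient array. Probes differ in affinity and labelling, so neither these shares nor the order of the 5 intensities ranks the miRNAs by abundance. Intensities are on a linear scale, as judged from the values. The sources used here name no scanner, background correction or normalization. The labelled cell type could not be checked against marker miRNAs, because features other than these 5 carry no names.

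**Figure D1:**
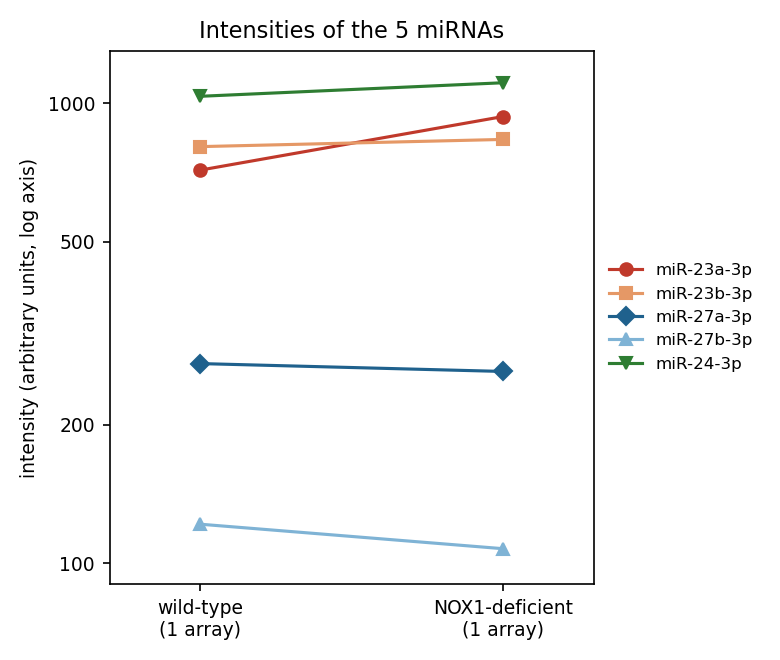
Intensity (arbitrary units, log axis) of each of the 5 miRNAs on the wild-type and the NOX1-deficient array, 1 array each, with lines joining the readings of one miRNA. The miR-23a-3p line climbs from 715 to 935 units, while the other 4 lines are close to level.

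In the miR-23 family the paralogs read differently. miR-23a-3p (MIMAT0000532), from the chromosome 8 cluster, read 715 units with NOX1 and 935 units without it. It was 1.31-fold higher without NOX1, a log2 difference (NOX1-deficient minus wild-type) of 0.39, and of the 5 miRNAs it had the difference farthest from 0. Its place among all listed features, counted from the brightest, was 19 in wild-type and 14 in NOX1-deficient cells. miR-23b-3p (MIMAT0000125), from the chromosome 13 cluster, read 804 units with NOX1 and 834 units without it, a ratio of 1.04 and a log2 difference of 0.05. Its places were 17 and 16, so its place shifted by less than that of miR-23a-3p.

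Both miR-27 paralogs read lower without NOX1, by small amounts. miR-27a-3p (MIMAT0000537) read 271.5 units on the wild-type array and 261 units on the other, a ratio of 0.961 and a log2 difference of -0.06, with places 36 and 37. miR-27b-3p (MIMAT0000126) read 121.5 units on the wild-type array and 107 units on the other. It was 1.13-fold lower without NOX1 (log2 difference -0.18), the lowest value of the 5, and its place went from 50 to 55. The sign for miR-27a-3p depends on the scaling, since median centring of the arrays took its log2 difference to 0.04. That setting raised every feature by the same amount. Under it the median of the brightest quartile of features was 0.12, against 0.03 as deposited, so miR-27a-3p was below that median either way.

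miR-24-3p (MIMAT0000219), which both clusters encode, was the brightest of the 5 features. It read 1035 units with NOX1 and 1108 units without it, a ratio of 1.07 and a log2 difference of 0.10. It held place 11 on both arrays, and quantile normalization, which depends on rank, gave it a log2 difference of 0.

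As a set the 5 miRNAs were split in direction, with 3 higher (both miR-23 paralogs and miR-24-3p) and 2 lower (both miR-27 paralogs) in NOX1-deficient cells. Among the 118 features in the brightest quartile of the 472 measured on both arrays, 56.8% were higher. The median log2 difference was 0.05 over the 5 miRNAs, 0.03 over those 118 features and 0.004 over the 472. None of the 5 was 1.5-fold different, 0 higher and 0 lower. Among the 236 features at or above the median brightness 2.97% were 1.5-fold different in either direction, and among the brightest quartile 0% were, so a count of 0 is also the count of the comparably bright features. At a threshold of 25% (the larger reading over the smaller), miR-23a-3p was higher in NOX1-deficient cells, 1 of 5, and 0 were lower, beside 7.63% of the brightest quartile higher and 0.847% lower.

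**Figure D2:**
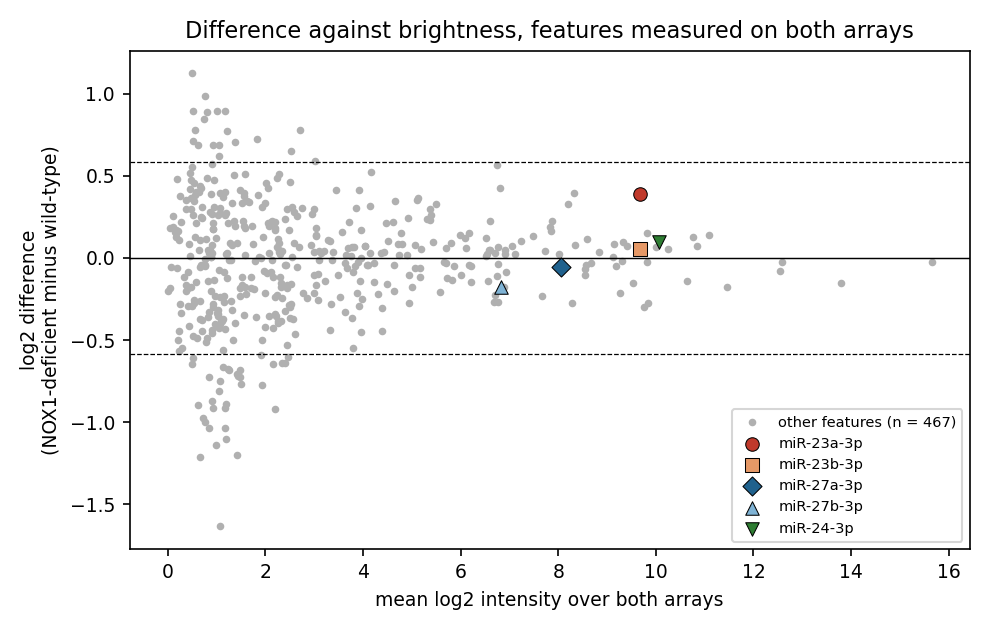
Log2 difference (NOX1-deficient minus wild-type) against mean log2 intensity over both arrays for the 472 features measured on both, with the 5 miRNAs as coloured symbols, the other 467 features in grey and dashed lines at 1.5-fold. The spread narrows towards bright features, and miR-23a-3p lies above the features of its own brightness.

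Placed among bright features, miR-23a-3p stood near the top, miR-27b-3p in the lower part and the other 3 in the middle. By signed difference within the 118 brightest features, miR-23a-3p was 4th from the highest, miR-24-3p 33rd, miR-23b-3p 50th and miR-27a-3p 82nd. miR-27b-3p was 16th from the lowest. The middle 50% of those 118 differences ran from -0.10 to 0.11, which took in miR-23b-3p, miR-27a-3p and miR-24-3p and left out miR-23a-3p and miR-27b-3p. Differences at least as far from 0 as that of miR-23a-3p were found in 4.24% of the 118 features, itself included, and at least as far as that of miR-27b-3p in 29.7%. The SD of the differences across the 118 features was 0.18 on the log2 scale. It is a spread across features and not the error of one.

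The contrast was sharper against features at least as bright as miR-23a-3p itself, a set that reaches much brighter ones (mean log2 intensity from 9.68 to 15.65). The set at least as bright in mean log2 intensity held 18 features, with miR-23a-3p, miR-23b-3p and miR-24-3p among them. The other 15 had log2 differences from -0.30 to 0.15 with a median of -0.02, and 6 of them were above 0. In that set the difference of miR-23a-3p was the highest and the farthest from 0. Among the 52 features at least as bright as miR-27b-3p it was 2nd from the highest, and the 47 other features ran from -0.30 to 0.39. These sets were drawn after the values had been seen and describe where miR-23a-3p lies, without testing it.

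Differences between the changes of 2 miRNAs do not move when an array is multiplied by 1 factor, so they were set side by side for all 10 pairs. They compare the NOX1-deficient to wild-type ratios, not the levels of different probes. The change of miR-23a-3p exceeded that of its paralog miR-23b-3p by 0.33 on the log2 scale, or 1.26-fold. The change of miR-27a-3p exceeded that of miR-27b-3p by 0.12, or 1.09-fold. Within the miR-23 and the miR-27 family, then, the feature named for the chromosome 8 member had the higher NOX1-deficient to wild-type ratio. The miR-27 gap became 0.0606 under quantile normalization and 0.0752 with log2(intensity + 50), settings that do more than multiply an array by 1 factor.

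On these arrays the miR-23 and miR-27 features named for one cluster did not read the same change. In the chromosome 8 cluster the change of miR-23a-3p exceeded that of miR-27a-3p by 0.44, or 1.36-fold. In the chromosome 13 cluster the change of miR-23b-3p exceeded that of miR-27b-3p by 0.23, or 1.17-fold. The miR-23 feature was thus above the miR-27 feature in both clusters. The gap in the chromosome 8 cluster was the wider one, and without replicates neither gap has an error.

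Grouped by cluster, miR-23a-3p and miR-27a-3p had a mean log2 difference of 0.16, and miR-23b-3p and miR-27b-3p had a mean of -0.06. Grouped by family, the miR-23 paralogs had a mean of 0.22 and the miR-27 paralogs a mean of -0.12. Each mean covers 2 features. Those that include miR-23a-3p average its 0.39 with 0.05 (miR-23b-3p) or -0.06 (miR-27a-3p), so they do not show a shift shared by both features. miR-24-3p, to which both clusters contribute, had 0.10. Over the 10 pairs, the widest gap was between miR-23a-3p and miR-27b-3p (0.56, or 1.48-fold), and the narrowest was between miR-23b-3p and miR-24-3p (a log2 value of -0.05, miR-23b-3p first, or 1.03-fold). The 4 pairs with miR-23a-3p ran from 0.29 to 0.56. The widest of the 6 pairs without it, miR-27b-3p and miR-24-3p, had -0.27 (miR-27b-3p first).

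**Figure D3:**
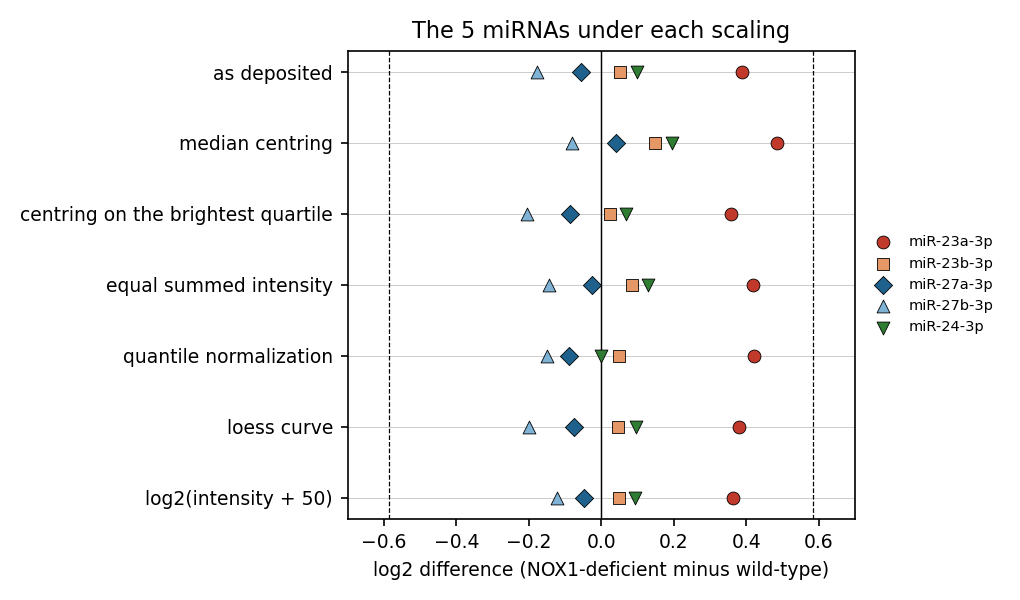
Log2 difference (NOX1-deficient minus wild-type) of each of the 5 miRNAs with the intensities as deposited and under 6 other treatments of the arrays, 1 line per treatment, with dashed lines at 1.5-fold. miR-23a-3p keeps to the right in all 7 lines, from 0.36 to 0.48, and miR-27a-3p crosses 0 under median centring.

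The order of the 5 differences was compared under each treatment of the arrays, shown in the plot by scaling. miR-23a-3p was the highest and miR-27b-3p the lowest throughout. Over the deposited values and the 5 changes of scaling, miR-23a-3p ranged from 0.36 to 0.48, miR-23b-3p from 0.02 to 0.15, miR-24-3p from 0 to 0.19, miR-27a-3p from -0.09 to 0.04 and miR-27b-3p from -0.21 to -0.08. The upper end of each range came from median centring, which raised every feature by the same amount.

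Features with readings most like those of the 5 were sought by distance in the plane of the log2 intensities of both arrays (2 values per feature). The nearest to miR-27b-3p was MIMAT0000135, at a distance of 0.06, which read 125 and 111 units and had the same log2 difference of -0.18. The nearest to miR-23b-3p was MIMAT0000157, at 0.20, with 909.5 and 893 units. miR-24-3p was nearest to MIMAT0000521, at 0.10, with 999 and 1045 units and a log2 difference of 0.06. miR-23a-3p had the most distant neighbour, MIMAT0000523, at 0.27, which read 860.3 units with NOX1 and 954 units without it, a log2 difference of 0.15. The neighbour of miR-27a-3p, at 0.09, read 255 and 259.6 units. With 1 reading per genotype, likeness here means near-equal brightness on both arrays and no more.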

How the data were processed

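miRNAs were measured on 1 array of wild-type and 1 array of NOX1-deficient cells. Per the labels' protocols, total RNA (miRNeasy mini kit) was labelled with Hy5 by the miRCURY LNA array kit. The deposited table gives 1 intensity per feature and array. Its unit and linear scale were read from the values, and no source used here gives the normalization or the meaning of null. Log2 differences were computed from deposited intensities without a pseudocount, over the 472 features measured on both arrays. The number of arrays limits the precision, and no test was made. The miRNAs were found by accession, with no intensity used, but they and the comparisons were proposed with earlier results of these data known. Named were the 5 miRNAs and, for 4 of them, the nearest feature; other arms of the hairpins and marker miRNAs were not evaluated, since no table used here pairs their names with accessions. The 1.5-fold count was checked on simulated data. The planted changes were well past 1.5-fold, and the added noise was smaller than the spread of the real differences. That check covers the calculation only and cannot show how reliable a count from 1 array per genotype is. Alternatives were 6 scalings or transforms (median centring, centring on the brightest quartile, equal summed intensity, quantile normalization, a loess curve with span 0.4, log2(intensity + 50)), other thresholds (25% and 2-fold), other brightness filters and leaving out single miRNAs. Ranks within each array, the means by family, and the differences between pairs other than the paralogs, were added after seeing the data. Python 3.11.15, numpy 2.4.6, pandas 2.3.3, statsmodels 0.14.6 and matplotlib 3.10.9 were used.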

Additional observations from a re-analysis of the deposited data

How the results depend on the processing

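Under the 6 alternative treatments, 29 of 30 recomputed member values did not take the opposite sign, and the exception was miR-27a-3p, from -0.06 to 0.0397 under median centring. The median of the 5 miRNAs, 0.05, became 0.15 under median centring, 0.0236 after centring on the brightest quartile, 0.0843 at equal summed intensity and 0 under quantile normalization. Leaving out miR-23a-3p or miR-24-3p gave -0.0024, leaving out miR-23b-3p gave 0.0204, and leaving out miR-27a-3p or miR-27b-3p gave 0.0748. The number of the 5 that were higher, 3, became 4 under median centring and 2 under quantile normalization. The count of 0 at 1.5-fold became 1 at the 25% threshold. Under quantile normalization and log2(intensity + 50), the gap of miR-23a-3p over miR-23b-3p, 0.33, became 0.37 and 0.32, that of miR-27a-3p over miR-27b-3p, 0.12, became 0.0606 and 0.0752, and the gap of the chromosome 8 over the chromosome 13 pair, 0.23, became 0.22 and 0.20. The 7 features at 1.5-fold among the brighter 236 became 53 without the brightness filter, 0 in the brightest quartile, 0 with log2(intensity + 50), 0 at 2-fold and 39 at the 25% threshold. Each value was recomputed from the same arrays, so these shifts come from the settings. Median centring moved every feature by the same amount. Under it the median over all features measured on both arrays was 0.10 and that of the brightest quartile was 0.12. No paired analysis was possible because the table holds only 1 array per genotype, and no replicate could be left out. No background values were used here, so signal over background is unknown.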
